A study of Mus musculus with 18 samples.

Results

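The genes of the cytosolic ribosomal proteins, which encode the protein part of the ribosome outside mitochondria, were followed through 18 mouse polyA RNA-seq libraries. Members were chosen by symbol, as Rpl or Rps names that end in a number with at most 1 letter after it, the stalk genes Rplp0, Rplp1 and Rplp2, and Rpsa. A mean of at least 20 FPKM (fragments divided by transcript length and by the mapped reads of the library) over the 18 libraries was also required, and names of pseudogenes and of the kinases of Rps6 were left out. Of 25696 symbols, 82 matched by name and 76 were members, 44 of the large subunit and 32 of the small subunit. The members closest to the minimum were Rps4l (37.6 FPKM), Rps15a (50.5 FPKM) and Rpl30 (71.8 FPKM), as means over the 18 libraries. Just outside it were Rpl26 (13.8 FPKM), Rpl34 (12.8 FPKM), Rpl39l (10.4 FPKM), Rpl32l (4.39 FPKM) and Rpl3l (0.0909 FPKM), and Rpl10l was listed at 0.

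The study set mice that carry an NFIA transgene (NFIA-Tg) against wild type (WT) mice, with 3 libraries per group. NFIA, nuclear factor I-A, is a transcription factor of the brown fat programme. The groups were NFIA-Tg and WT inguinal white adipose tissue (iWAT), NFIA-Tg and WT cultures at day 7 of differentiation into adipocytes, and NFIA-Tg and WT cultures at day 0. Cultures were grown from the stromal vascular fraction of inguinal fat. For differentiation, both genotypes first received isobutylmethylxanthine, indomethacin, dexamethasone, insulin, T3 and rosiglitazone, and then the last 3 of these alone. The sources used here do not name the promoter of the transgene or the age of the mice. Nothing in the labels says which libraries came from separate animals or cultures, so each p-value rests on a spread between libraries that could be technical.

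The targeted gene checked the labels in tissue and went against them in culture at day 7. Nfia stood at 166, 99.6 and 157 FPKM in NFIA-Tg iWAT, against 3.73, 4.19 and 3.94 FPKM in WT iWAT. At day 7 it stood at 6.44, 7.32 and 7.20 FPKM in cultures labelled NFIA-Tg, against 12.5, 13.0 and 12.01 FPKM in WT cultures. Day 0 gave 11.3, 12.5 and 11.9 FPKM in cultures labelled NFIA-Tg, against 6.42, 6.30 and 6.51 FPKM in WT cultures. Genotype in culture is therefore given as a label, and differences there are between label groups. Summed FPKM of 8 adipocyte markers ran from 29370 to 40190 in NFIA-Tg iWAT and from 31080 to 36030 in WT iWAT, from 26950 to 30440 in day 7 cultures labelled NFIA-Tg and from 26300 to 30550 in WT day 7 cultures, and from 528 to 581 in day 0 cultures labelled NFIA-Tg and from 142 to 167 in WT day 0 cultures. Fabp4, a lipid carrier, made up most of the day 7 sums, and single markers differed there. Of 7 tested, 4 (57.1%) were lower and 0 higher in day 7 cultures labelled NFIA-Tg, where 51.1% of all tested genes were lower and 29.8% higher. Among the 4 were Adipoq (adiponectin, 240 to 276 FPKM in labelled NFIA-Tg and 1275 to 1325 FPKM in WT) and Cidec, a lipid droplet protein (702 to 817 FPKM in labelled NFIA-Tg and 1297 to 1381 FPKM in WT). Their part in the results at day 7 was not tested. The culture values gave back whole numbers of reads, between 16772594 and 28625625 per library, and the depth of the iWAT libraries is unknown. Tissue and culture tables used different gene lengths, with a median over the members of 2985.5 bases in the iWAT table and 737 bases in the culture table, so levels and shares were compared only within a table.

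A cytosolic ribosome joins a small subunit, which reads the mRNA, to a large subunit, which forms peptide bonds, and nearly every one of its proteins is present in a single copy. The mRNAs of these proteins belong to the most abundant of growing cells, and most of them begin with a run of C and T bases, the 5′ terminal oligopyrimidine (TOP) element. Through this element the kinase mTOR and the RNA-binding protein Larp1 set how well these mRNAs are translated and how long they are kept. Making ribosomes is a large part of the cost of growth, so cells that grow at different rates can differ in their demand for them.

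Promoter sequence from RefSeq (mouse build GRCm38.p6) was matched by symbol for 55 of the 76 members. The 6 windows that follow belong to members with large differences in the culture results. Each covers 30 bases before and 30 bases from the annotated start, is written 5′ to 3′ on the gene's strand, and has its longest unbroken run of C and T in capitals. The windows lie at chr7:45128716-45128775 (Rpl13a, minus strand), chr15:5116583-5116642 (Rpl37, plus strand), chr4:86857338-86857397 (Rps6, minus strand), chr10:23787180-23787239 (Rps12, minus strand), chrX:37085193-37085252 (Rpl39, minus strand) and chrX:102189362-102189421 (Rps4x, minus strand).
Rpl13a: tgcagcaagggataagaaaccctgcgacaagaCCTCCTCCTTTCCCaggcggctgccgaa
Rpl37: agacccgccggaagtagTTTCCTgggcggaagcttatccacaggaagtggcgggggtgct
Rps6: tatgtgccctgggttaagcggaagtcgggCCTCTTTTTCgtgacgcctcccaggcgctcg
Rps12: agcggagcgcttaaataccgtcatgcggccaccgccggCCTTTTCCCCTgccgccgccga
Rpl39: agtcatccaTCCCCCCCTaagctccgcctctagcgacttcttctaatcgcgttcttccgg
Rps4x: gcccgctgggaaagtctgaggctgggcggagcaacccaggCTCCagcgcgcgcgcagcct

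In Rpl13a and Rps6 the run lay at the annotated start or within a few bases of it, in Rps12 it followed shortly after, and in Rpl39 it lay upstream. The longest run was only 6 bases in Rpl37, upstream of the start, and 4 bases in Rps4x, after it. Over the 60 bases the median longest run was 8 bases in the 55 members and 5 bases in all 27025 promoters of the table. Runs of at least 8 bases stood in 28 members (50.9%), and in 22.8% of all promoters. The motif CTTTCC on the gene's strand, which can overlap such a run, stood in the 60 bases of 9 members (16.4%) and in 2.85% of all promoters. Over the full 300 bases and on either strand, CCGGAAGT, the core of a site for factors of the Ets family, stood in 11 members (20%) and in 4% of all promoters. These matches describe letters only.

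The members made up 6.08 ± 0.33% of summed FPKM in day 7 cultures labelled NFIA-Tg and 7.05 ± 0.15% in WT day 7 cultures, against 11.6 ± 0.20% in day 0 cultures labelled NFIA-Tg and 12.1 ± 0.14% in WT day 0 cultures (SD, n = 3 each). In iWAT the share was 5.23 ± 0.18% in NFIA-Tg and 5.42 ± 0.57% in WT (SD, n = 3 each). The 3 labelled NFIA-Tg libraries lay below the 3 WT libraries at day 7 (5.86 to 6.46% against 6.91 to 7.21%) and at day 0 (11.3 to 11.7% against 11.99 to 12.3%). The tissue groups overlapped, at 5.11 to 5.44% in NFIA-Tg and 5.02 to 6.07% in WT. The summed FPKM of large subunit members over that of small subunit members was 1.57 ± 0.00185 in day 7 cultures labelled NFIA-Tg and 1.46 ± 0.0233 in WT day 7 cultures, against 1.43 ± 0.00574 in day 0 cultures labelled NFIA-Tg and 1.42 ± 0.00904 in WT day 0 cultures (SD, n = 3 each). At day 7 all 3 ratios of the labelled NFIA-Tg libraries lay above those of WT, whereas at day 0 the groups overlapped. In bulk samples fewer cells of a type and less RNA per cell cannot be told apart, and a share can also move because other RNAs do.

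**Figure D1:**
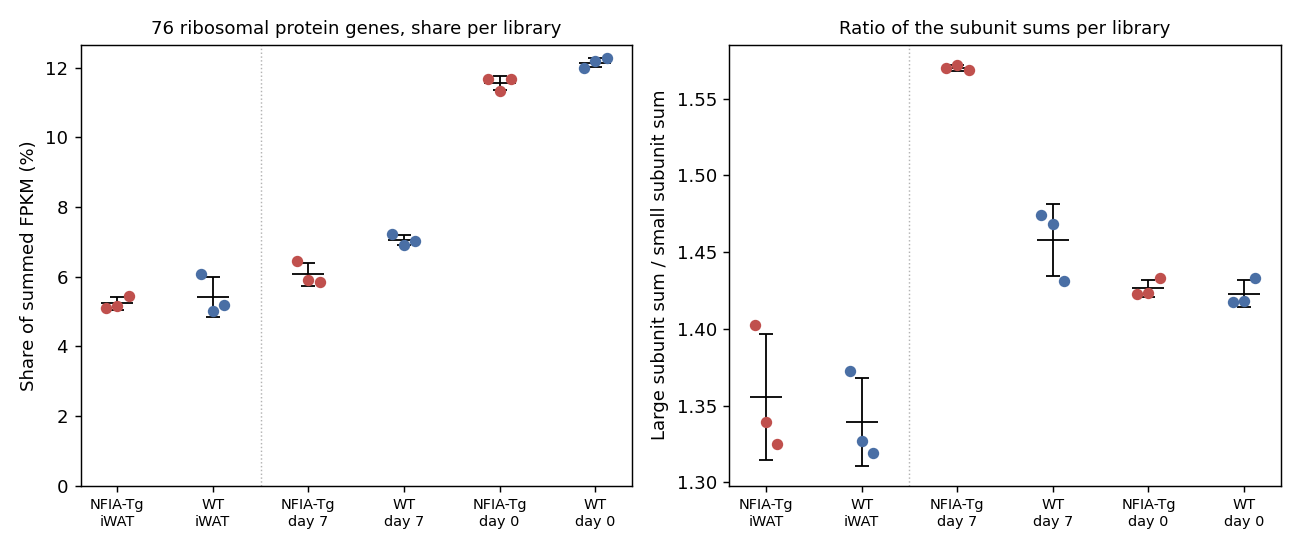
Left, summed FPKM of the 76 members as a percentage of all summed FPKM; right, summed FPKM of large subunit members over that of small subunit members, with 1 point per library (NFIA-Tg red, WT blue), the mean as a bar and the SD as whiskers. The share is near 12% at day 0 and near 6 to 7% at day 7, and the day 7 cultures labelled NFIA-Tg have the highest ratios; the dotted line separates tissue from culture, whose tables are not on the same length basis.

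The most abundant members kept to a small circle of genes. Rplp1, part of the stalk that recruits elongation factors, came first in WT day 7 cultures (1281 ± 77.9 FPKM) and in both day 0 groups (1867 ± 105 FPKM in labelled NFIA-Tg and 2054 ± 9.06 FPKM in WT, SD, n = 3 each). Rplp0, the base of the same stalk, and Rps12 of the small subunit's head followed at day 0. Day 7 cultures labelled NFIA-Tg began with Rpl8 (783 ± 50.4 FPKM), Rplp1 (782 ± 72.6 FPKM) and Rpl9 (775 ± 25.6 FPKM), which did not differ beyond their spread. In iWAT the order was Rpl41, whose product is among the smallest of any protein, then Rplp1 and Rps29, in both genotypes. Rpl41 stood at 927, 861 and 923 FPKM in NFIA-Tg iWAT, against 1388, 924 and 905 FPKM in WT iWAT, so that its place ahead of Rplp1 (910, 837 and 926 FPKM in NFIA-Tg, 1321, 821 and 855 FPKM in WT) was within the spread. At the other end were Rps15a in iWAT (29.1 FPKM on average in NFIA-Tg and 28.8 FPKM in WT) and Rpl30 in all 4 culture groups (0.242 to 0.728 FPKM).

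Both Rpl30 and Rps27 were listed high in the iWAT table, apart from Rps27 in replicate 1, and near 0 in the culture table. The tables differ in gene lengths, so this is not given as a difference between tissue and culture. Rpl30 held 182 to 237 FPKM in NFIA-Tg iWAT and 189 to 227 FPKM in WT iWAT, but at most 0.944 FPKM in any culture library, which kept it out of the culture tests. Rps27, a zinc-finger protein of the small subunit, ran from 0.970 to 2.50 FPKM in the culture libraries. In tissue it stood at 4.39, 497 and 507 FPKM in NFIA-Tg and at 12.5, 490 and 545 FPKM in WT, with replicate 1 low in both genotypes. The same division by table held for 2 genes under the minimum, Rpl26 (41.3 FPKM on average in iWAT and 0 in culture) and Rpl34 (35.1 FPKM in iWAT and 1.64 FPKM in culture). Near-identical copies of these genes carried reads in the iWAT table, at 430 FPKM in NFIA-Tg and 434 FPKM in WT for Gm15772 (99.5% identical to Rpl26), at 248 FPKM in NFIA-Tg and 257 FPKM in WT for Rpl34-ps1, and at 46.8 FPKM in NFIA-Tg and 47.5 FPKM in WT for Gm12191, a copy of Rpl30. In culture all 3 copies were listed at 0. The sources used here do not say how reads that match several places were assigned, and the values of Rpl30 and Rps27 are uncertain.

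Nearly all members were lower at day 7 than at day 0 in both genotypes. In cultures labelled NFIA-Tg 69 of 75 tested members fell and 2 rose (limma on log2(FPKM + 1), Benjamini-Hochberg adjusted p under 0.05). Of all 12553 tested genes 87.2% were called there, 41.5% as lower and 45.7% as higher. In WT cultures 70 members fell and 1 rose, where 81.6% of all genes were called, 35.4% as lower and 46.2% as higher. The median log2 change of the members was −0.66 in labelled NFIA-Tg and −0.61 in WT cultures, where that of all genes was 0.05 and 0.09. Rescaling the libraries lowered the median of all genes by up to 0.29 in labelled NFIA-Tg and 0.22 in WT cultures, and left the members' median 0.71 to 0.78 below it in labelled NFIA-Tg and 0.64 to 0.74 below it in WT cultures. The number that fell was 69 to 75 in labelled NFIA-Tg and 70 to 73 in WT cultures under those scalings.

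The members that fell most shared no single role. In cultures labelled NFIA-Tg these were Rpl39 of the peptide exit tunnel (log2 change −1.69 ± 0.11, SE), Rps4x (−1.45 ± 0.06), Rps21 (−1.43 ± 0.10), Rpl12 at the base of the stalk (−1.41 ± 0.07) and Rps12 (−1.39 ± 0.08). In WT cultures they were Rps20 of the small subunit's head (−1.24 ± 0.06), Rpl39 (−1.15 ± 0.11), Rpl12 (−1.07 ± 0.07), Rps4x (−1.02 ± 0.06) and Rpl10, which joins the large subunit late in its assembly (−0.95 ± 0.07). The highest adjusted p among these 10 values was 6.38e-07, for Rpl39 in WT cultures (limma). Rps20 held 66.5, 66.8 and 58.8 FPKM in labelled NFIA-Tg cultures at day 7, against 165, 157 and 160 FPKM at day 0, and 82.0, 71.7 and 76.8 FPKM in WT cultures at day 7, against 176, 188 and 184 FPKM at day 0. No day 7 library reached any day 0 library.

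Few members departed from this fall. Rps4l, a gene on chromosome 6, is named for its likeness to Rps4x and had no protein-coding entry in the annotation used. It did not pass in labelled NFIA-Tg cultures (31.6, 30.3 and 26.5 FPKM at day 7, against 31.2, 32.1 and 32.6 FPKM at day 0). In WT cultures it rose (34.1, 33.8 and 33.3 FPKM at day 7, against 21.8, 22.6 and 23.4 FPKM at day 0, log2 change 0.56 ± 0.06, adjusted p = 8.69e-07 by limma). Rps6 and Rpl9 passed as higher at day 7 in labelled NFIA-Tg cultures, with log2 changes of 0.18 ± 0.07 and 0.16 ± 0.06, but both turned negative when libraries were scaled to TPM (transcript shares scaled to a fixed total, −0.075 and −0.10) or to the genes that are not members (−0.16 and −0.18). Rps6 also lost the call without the labelled NFIA-Tg libraries day 0 replicate 2 (adjusted p = 0.0926) or day 7 replicate 1 (0.107). For Rpl9 the call went without any of 4 labelled NFIA-Tg libraries, replicate 1 or 2 of either day (adjusted p = 0.0501 to 0.0711, limma). Members that passed in neither direction were Rpl7a, Rpl27, Rps4l and Rplp2 in labelled NFIA-Tg cultures and Rpl9, Rplp2, Rpl36 and Rps27 in WT cultures.

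**Figure D2:**
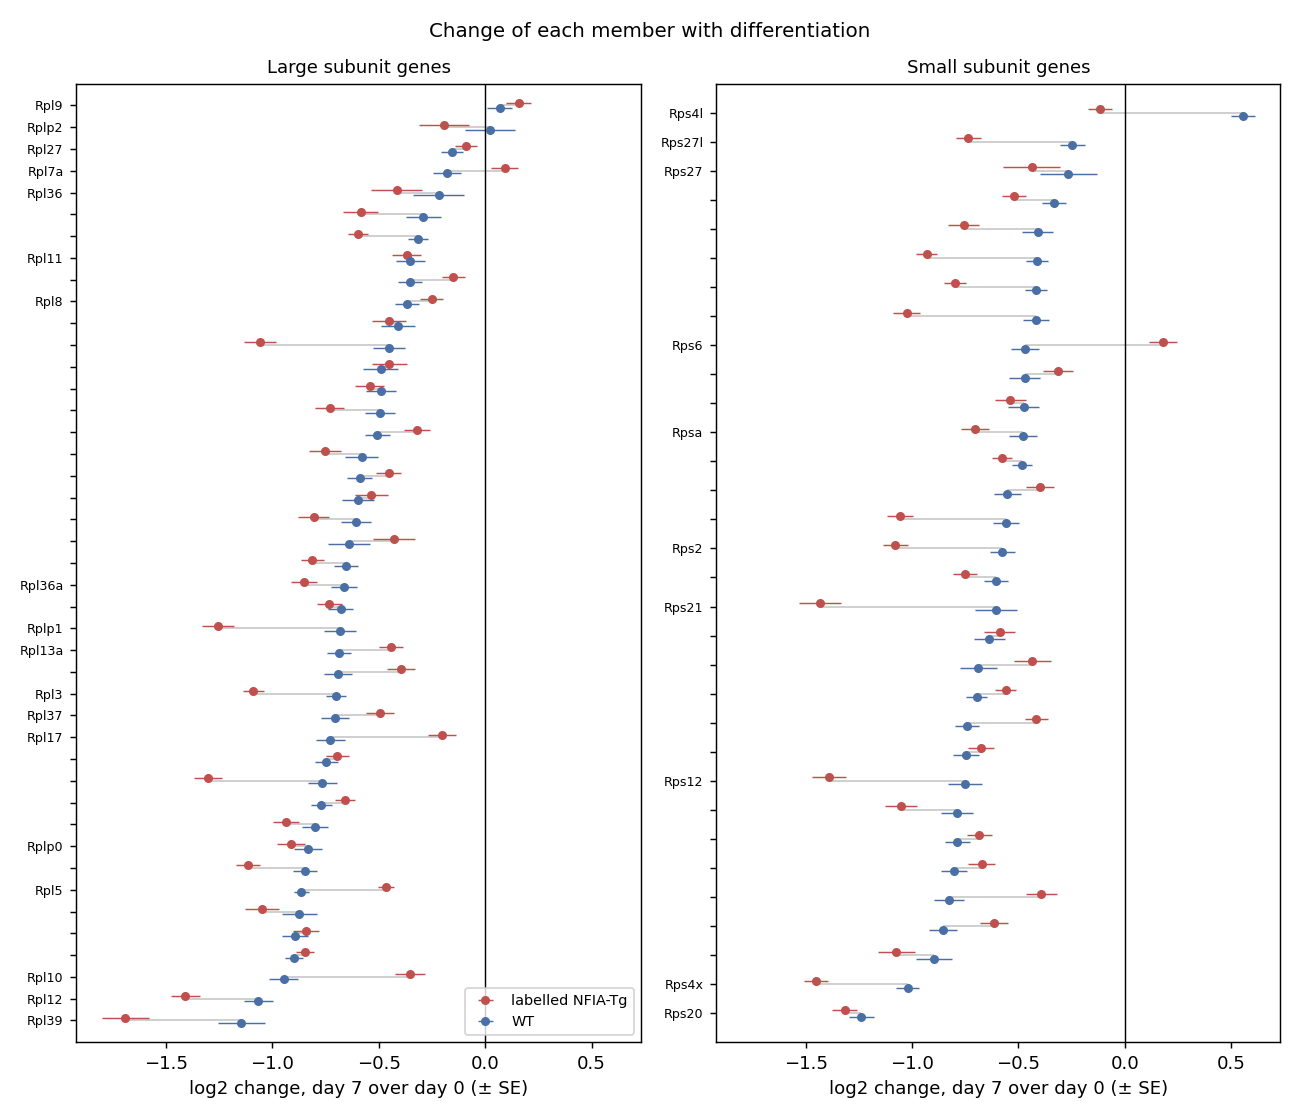
Log2 change of each tested member at day 7 over day 0 on the log2(FPKM + 1) scale, in cultures labelled NFIA-Tg (red) and WT cultures (blue), with the SE of the fit as whiskers, sorted by the WT change; most genes described in the text carry their names. Nearly all members lie left of 0 in both, between −1.69 and 0.56, and the genotypes lie furthest apart for Rps21, Rps4l and Rps6.

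Other gene lists of the translation machinery were counted beside the members with differentiation, where 45.7% of all genes rose and 41.5% fell in labelled NFIA-Tg cultures and 46.2% rose and 35.4% fell in WT cultures. Of 77 mitochondrial ribosomal protein genes, 76 rose and 1 fell in labelled NFIA-Tg cultures (median log2 change 1.22) and 74 rose and 1 fell in WT cultures (0.98). Of 36 ribosome assembly factors, 26 rose and 5 fell in labelled NFIA-Tg cultures and 19 rose and 6 fell in WT cultures. Among them Dkc1, the pseudouridine synthase of rRNA, rose by 1.26 ± 0.04 in labelled NFIA-Tg and 0.88 ± 0.04 in WT cultures on the log2 scale. Of 20 translation factors whose mRNAs begin with a TOP element, 12 fell and 7 rose in labelled NFIA-Tg cultures and 13 fell and 5 rose in WT cultures. Eef1a1, the factor that brings tRNA to the ribosome, fell by 0.72 ± 0.06 in labelled NFIA-Tg and 0.73 ± 0.06 in WT cultures on the log2 scale. Eef1b2, its exchange factor, fell by 1.18 ± 0.05 in labelled NFIA-Tg and 0.95 ± 0.05 in WT cultures. All 12 markers of dividing cells rose in both genotypes, with sums of 484 to 521 FPKM in labelled NFIA-Tg cultures at day 7 against 216 to 228 FPKM at day 0, and of 986 to 1036 FPKM in WT cultures at day 7 against 479 to 487 FPKM at day 0. Their part in the members' changes was not tested.

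At day 7 the labelled genotypes differed in 51 of 75 tested members, 16 higher and 35 lower in cultures labelled NFIA-Tg (limma, adjusted p under 0.05). Of all tested genes 80.9% differed, 29.8% higher and 51.1% lower, so the share of members that differed was below that of all genes. The split depended on how libraries were scaled. It was 26 higher and 23 lower with median-of-ratios scaling, 12 and 42 with TPM or with scaling to the genes that are not members, and 15 and 41 with quantile normalization. The members' median log2 difference was −0.12, with −0.17 for all genes, and 0.02 with −0.06 for all genes after median-of-ratios scaling. Of the 51 calls, 35 were kept under all 24 alternatives and 8 were lost without at least 1 library.

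The largest differences ran in both directions and held under all alternatives. Rpl37, a zinc-binding protein of the large subunit, stood at 421, 363 and 354 FPKM in cultures labelled NFIA-Tg, against 220, 198 and 197 FPKM in WT cultures (log2 difference 0.88 ± 0.07, adjusted p = 7.95e-08). Rpl13a, a large subunit protein known in human cells to leave the ribosome and silence mRNAs after interferon gamma, stood at 618, 552 and 559 FPKM in labelled NFIA-Tg and 375, 335 and 353 FPKM in WT cultures (0.70 ± 0.06, adjusted p = 1.52e-07). Rpl17, which lines the exit tunnel, held 654, 557 and 555 FPKM in labelled NFIA-Tg and 417, 385 and 385 FPKM in WT cultures (0.57 ± 0.07). Every labelled NFIA-Tg library lay above every WT library for these 3 genes. Rps6, the substrate of the S6 kinases, was also higher (0.46 ± 0.07). Rps6 stood at 274, 236 and 229 FPKM in labelled NFIA-Tg and at 192, 172 and 173 FPKM in WT cultures.

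Among members that were lower in labelled NFIA-Tg cultures at day 7, Rpl39 held 195, 209 and 204 FPKM, against 481, 338 and 469 FPKM in WT cultures (log2 difference −1.06 ± 0.11, adjusted p = 1.53e-06). Rps4x held 292, 259 and 255 FPKM in labelled NFIA-Tg and 544, 540 and 538 FPKM in WT cultures (−1.01 ± 0.06, adjusted p = 3.36e-09). Rps12 held 457, 435 and 386 FPKM in labelled NFIA-Tg and 804, 680 and 829 FPKM in WT cultures (−0.85 ± 0.08). The groups did not overlap for any of the 3. Rps2, which lines the mRNA entry channel, followed at −0.83 ± 0.06, and Rps21, which contacts Rpsa, at −0.81 ± 0.10, with 165, 159 and 131 FPKM in labelled NFIA-Tg and 303, 230 and 267 FPKM in WT cultures.

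Among members of the same ribosomal site some passed at day 7 and others did not. Differences between members were not tested. Of the stalk, Rplp1 was lower in labelled NFIA-Tg cultures at day 7 (858, 775 and 714 FPKM, against 1305, 1344 and 1194 FPKM in WT, log2 difference −0.71 ± 0.07) and Rplp0 was lower by less (−0.30 ± 0.07, adjusted p = 0.00105, and 0.0501 with median-of-ratios scaling). Rplp2 gave −0.10 ± 0.12 and did not pass. Of the 5S particle, which binds the p53 ubiquitin ligase Mdm2 when assembly fails, Rpl5 gave 0.12 ± 0.04 (adjusted p = 0.0122, lost under 3 of the scalings at 0.208 to 0.531) and Rpl11 gave 0.05 ± 0.07 (adjusted p = 0.515, limma). Of the paralogs Rps27 and Rps27l, the second was lower (−0.29 ± 0.06), and Rps27 stood at 1.04 to 1.98 FPKM in labelled NFIA-Tg and 0.970 to 1.22 FPKM in WT cultures.

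**Figure D3:**
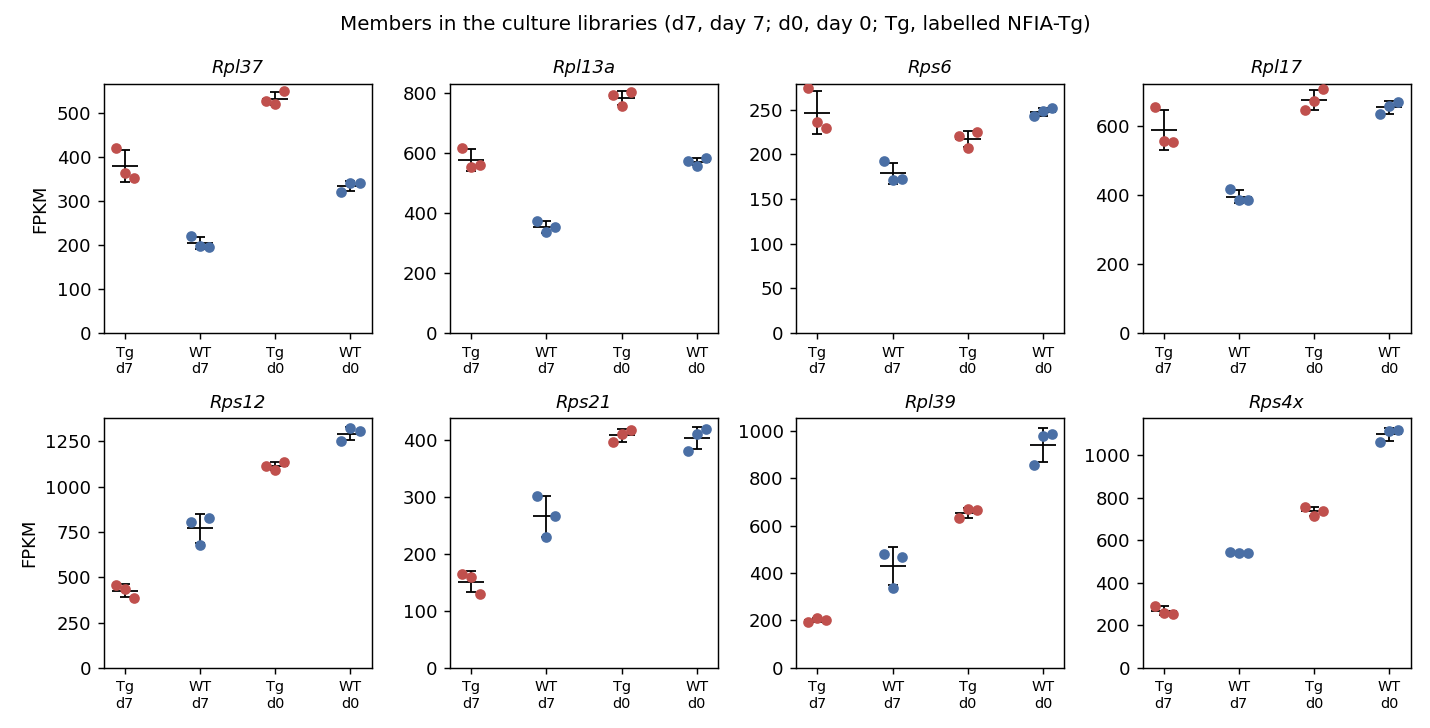
FPKM of 8 members in every culture library, with the mean as a bar and the SD as whiskers (n = 3 per group); each vertical axis starts at 0. Rpl37 and Rpl13a lie higher in labelled NFIA-Tg cultures at both days, Rpl39 and Rps4x lower at both days, and Rps6, Rpl17, Rps12 and Rps21 differ mainly at day 7.

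At day 0 the differences were smaller. Of 75 tested members 13 were higher and 25 lower in cultures labelled NFIA-Tg, against 28.1% and 34.9% of all genes, together 63.0% (limma, adjusted p under 0.05). The median log2 difference of the members was −0.05, and that of all genes −0.03. With median-of-ratios scaling 16 were higher and 14 lower. The count of 38 fell to 25 without WT day 0 replicate 2 (9 higher, 16 lower) and to 25 without labelled NFIA-Tg day 0 replicate 2 (12 higher, 13 lower), and 21 of the 38 calls were kept under all 24 alternatives.

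Rpl37 again led the increases, at 528, 521 and 550 FPKM in labelled NFIA-Tg day 0 cultures, against 321, 340 and 342 FPKM in WT (log2 difference 0.67 ± 0.07, adjusted p = 2.83e-06). Also higher were Rps4l (0.48 ± 0.06) and Rpl13a (0.46 ± 0.06, with 792, 757 and 802 FPKM in labelled NFIA-Tg and 573, 557 and 582 FPKM in WT). Rps27 gave 0.36 ± 0.13 at under 3 FPKM, and lost the call without WT replicate 2 (adjusted p = 0.14) or labelled NFIA-Tg replicate 1 (0.108) or 3 (0.0911, limma). The largest decreases were those of Rps4x (755, 713 and 739 FPKM in labelled NFIA-Tg, 1063, 1115 and 1118 FPKM in WT, −0.58 ± 0.06, adjusted p = 1.82e-06), Rpl39 (632, 669 and 666 FPKM in labelled NFIA-Tg, 859, 979 and 986 FPKM in WT, −0.52 ± 0.11), Rpl10 (−0.45 ± 0.07), Rpl36a (−0.44 ± 0.06) and Rpsa, which sits at the back of the small subunit (−0.42 ± 0.06). Rpl37, Rpl13a, Rpl39 and Rps4x thus differed in the same direction at both days.

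Between the days, 4 of 75 members (5.33%) were higher in labelled NFIA-Tg at both, 16 (21.3%) were lower at both, and 7 (9.33%) passed in opposite directions. Of all 12553 tested genes, 10.9% were higher at both, 22.5% lower at both and 19.2% opposite. Of these 7, Rpl3, Rpl37a, Rps19, Rps27l and Rps4l were higher at day 0 and lower at day 7, whereas Rpl5 and Rps6 were lower at day 0 and higher at day 7. The change with differentiation itself differed between the labelled genotypes (limma interaction, adjusted p under 0.05) in 35 of 75 members, 11 in favour of labelled NFIA-Tg and 24 against it, with 29.5% and 42.6% of all genes, together 72.1%. Median-of-ratios scaling gave 22 and 17, TPM 8 and 33, and scaling to the genes that are not members 7 and 33. All 7 members with opposite calls were among the 35. In favour of labelled NFIA-Tg, Rps6 had the largest interaction, 0.65 ± 0.09 on the log2 scale (adjusted p = 5.13e-05, kept under all alternatives), and stood at 220, 207 and 225 FPKM in labelled NFIA-Tg and 243, 248 and 252 FPKM in WT cultures at day 0. Its call at day 0 (−0.19 ± 0.07) was lost with median-of-ratios scaling (adjusted p = 0.087) and without WT replicate 2 (0.0614) or 3 (0.0722) or labelled NFIA-Tg replicate 2 (0.0977). In the other direction Rps21 had the largest interaction (−0.83 ± 0.14, adjusted p = 0.000179), with 397, 411 and 419 FPKM in labelled NFIA-Tg and 382, 411 and 420 FPKM in WT at day 0, where the groups overlapped.

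On chromosomes X and 15, most members differed between the label groups in culture in the same direction as the other genes of their chromosome. This grouping was chosen after values of these libraries were seen and is given as a description. The 4 tested members with the lowest values at day 0, Rps4x, Rpl39, Rpl10 and Rpl36a, are the 4 members on the X chromosome. Their median log2 difference was −0.82 at day 7 and −0.48 at day 0, and the 393 other tested genes of that chromosome had medians of −0.51 and −0.29. On chromosome 15 the 3 tested members Rpl37, Rpl8 and Rpl3 had medians of 0.43 and 0.31, and the 502 other genes 0.39 and 0.44. At day 0, 88.4% of those 502 genes and 21.9% of the 393 X-linked genes had a positive difference.

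Within these chromosomes the members were not uniform. Rpl8, a core protein of the large subunit's peptide-forming centre, was higher at both days (841, 758 and 751 FPKM in labelled NFIA-Tg day 7 cultures, against 581, 577 and 586 FPKM in WT, log2 difference 0.43 ± 0.06; 0.31 ± 0.06 at day 0). Rpl3 of the same chromosome was lower at day 7 (−0.23 ± 0.05, adjusted p = 0.142 with median-of-ratios scaling) and higher at day 0 (0.16 ± 0.05). The X-linked Rpl10 gave 0.15 ± 0.07 at day 7 without passing (adjusted p = 0.0653, limma), with 779, 657 and 677 FPKM in labelled NFIA-Tg and 665, 587 and 651 FPKM in WT cultures, which overlapped. Chromosome 7 carries 14 members, among them Rpl13a. At day 7, 7 of them were higher and 1 lower (median 0.14, that of 915 other genes −0.02), and at day 0, 6 were higher and none lower (median 0.13, other genes 0.13). On all chromosomes together, 29.8% of tested genes were higher and 51.1% lower at day 7, and 28.1% higher and 34.9% lower at day 0.

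Away from chromosomes 7, 15 and X, 54 tested members on 17 chromosomes had a median of −0.20 at day 7 (7 higher, 30 lower) and of −0.12 at day 0 (4 higher, 21 lower). Of all tested genes 29.8% were higher and 51.1% lower at day 7, and 28.1% higher and 34.9% lower at day 0, so the lower shares of these members were near those of all genes. The medians of the other genes of those chromosomes ran from −0.29 to 0.02 at day 7 and from −0.13 to 0.05 at day 0. The signs of the X-linked and chromosome 15 medians held under all 4 other scalings at both days, and that of chromosome 7 at day 7 turned positive with median-of-ratios scaling (0.09) and quantile normalization (0.13). In iWAT the other genes of chromosomes 7, 15 and X had medians of 0.02, 0.05 and 0.05, within or beside the 0.03 to 0.11 of the remaining chromosomes. What moves whole chromosomes together in these culture libraries, and its part in the members' values, was not tested.

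In iWAT none of the 76 members passed between NFIA-Tg and WT by limma (0 higher and 0 lower), where 11.4% of all 12396 tested genes did, 5.96% as higher and 5.44% as lower. At an unadjusted p under 0.05 stood 1 member. It was Rps6, at 193, 192 and 213 FPKM in NFIA-Tg and 178, 170 and 152 FPKM in WT iWAT, without overlap (log2 difference 0.26 ± 0.11, adjusted p = 0.15). Rps6-ps4, a pseudogene 100% identical to it where their sequences aligned, was listed at an average of 131 FPKM in NFIA-Tg and 103 FPKM in WT iWAT, higher in the same group, and the part of shared reads in this value was not tested. The median difference of the members was −0.04 and that of all genes 0.05, and apart from Rps27 the members' values lay between −0.27 and 0.26. Rps27 gave −0.47 ± 1.95, with replicate 1 low in each genotype.

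A single WT library carried most of the spread in iWAT. WT replicate 1 held the highest of the 6 values for 62 of 76 members, with a median of 0.32 above each member's centre on the log2 scale, whereas the other 5 libraries had medians of −0.07 to 0.10. The SD of a member was a median of 7.14% of its mean in NFIA-Tg and 16.0% in WT iWAT. Without this library the median difference was 0.08 and 63 members were positive, compared with 28 when it was kept, and again 0 members were called. Fau, which encodes a ribosomal protein fused to a ubiquitin-like one, stood at 67.6, 71.1 and 72.9 FPKM in NFIA-Tg iWAT and 632, 67.3 and 76.6 FPKM in WT iWAT. The same library stood apart there, but by far more than the members' median of 0.32 on the log2 scale. A link between them was not tested. Marker sums of lymphocytes were 15.3 to 24.4 FPKM in NFIA-Tg and 26.0 to 38.9 FPKM in WT iWAT. The lowest WT sum, 26.0 FPKM, was that of WT replicate 1, and the highest, 38.9 FPKM, that of WT replicate 2. Of 8 tested lymphocyte markers 1 was lower and the rest did not pass. Endothelial sums were 394 to 537 FPKM in NFIA-Tg and 748 to 782 FPKM in WT iWAT. Those of skeletal muscle were 13.3 to 42.2 FPKM and 123.6 to 183.5 FPKM, and those of dividing cells 44 to 51 FPKM and 54 to 65 FPKM. Acta1 alone made up most of the muscle sums (21.6, 11.4 and 33.2 FPKM in NFIA-Tg, 181, 121 and 102 FPKM in WT). Other muscle markers were high only in WT replicate 3, such as Ckm (0, 0 and 16.4 FPKM in WT) and Tnnt3 (0, 1.02 and 18.7 FPKM in WT). Of 3 tested muscle markers 1 was lower and the rest did not pass. Macrophage sums and those of preadipocytes and fibroblasts overlapped. The part of these cell types was not tested. Of 77 mitochondrial ribosomal protein genes 9 (11.7%) were higher and 0 lower in NFIA-Tg iWAT, where 5.96% of all genes were higher and 5.44% lower. Of 36 assembly factors 2 (5.56%) were higher, near the share of all genes. These were Dkc1 (0.75 ± 0.17, adjusted p = 0.0301) and Tsr1 (0.60 ± 0.16, adjusted p = 0.0439, limma).

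**Figure D4:**
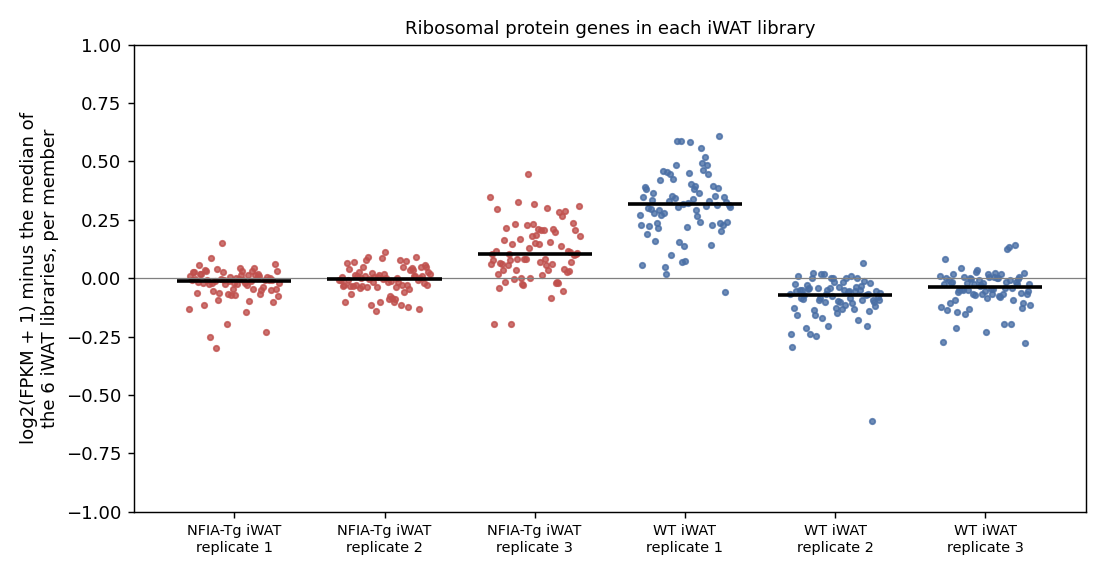
Each point is 1 member in 1 iWAT library, as log2(FPKM + 1) minus the median of that member over the 6 libraries; black bars are library medians. WT replicate 1 lies above the others with a median of 0.32, and Rps27 lies below the axis in both replicate 1 libraries (4.39 FPKM in NFIA-Tg and 12.5 FPKM in WT).

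Other genes of ribosome production were counted between the labelled genotypes in culture, where 51.1% of all genes were lower and 29.8% higher at day 7, and 34.9% lower and 28.1% higher at day 0. Of 36 assembly factors, 24 were lower and 6 higher in labelled NFIA-Tg cultures at day 7, and 30 were lower and 1 higher at day 0. Npm1, a nucleolar chaperone, was higher at day 7 (0.25 ± 0.06) and lower at day 0 (−0.71 ± 0.06), whereas Fbl, the rRNA methyltransferase, was lower at both (−0.49 ± 0.06 each). Of 12 tested genes of RNA polymerase I and its factors, 6 were lower and 2 higher at day 7 and 4 lower and 2 higher at day 0, with lower shares near those of all genes. TOP translation factors went both ways, with 10 higher and 5 lower at day 7 and 8 higher and 6 lower at day 0. Larp1, which binds the TOP element, was lower at both days (−0.90 ± 0.04 at day 7 and −0.48 ± 0.04 at day 0). Mtor gave 0.13 ± 0.05 at day 7 and 0.21 ± 0.05 at day 0. Myc, a driver of ribosome production, gave −0.15 ± 0.05 at day 7 (adjusted p = 0.0136) and −0.01 ± 0.05 at day 0 (adjusted p = 0.93, limma). Markers of dividing cells were lower in 11 of 12 at each day, with sums of 484 to 521 FPKM in labelled NFIA-Tg and 986 to 1036 FPKM in WT cultures at day 7, and of 216 to 228 FPKM in labelled NFIA-Tg and 479 to 487 FPKM in WT cultures at day 0. Preadipocyte and fibroblast markers were lower in 7 of 7 at day 7 (sums of 283 to 384 FPKM in labelled NFIA-Tg and 1493 to 1668 FPKM in WT). The part of either in the members' differences was not tested.

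Paralogs outside the members gave some of the largest values. Rpl39l, a paralog of Rpl39 best known from testis, stood at 3.09, 3.25 and 2.22 FPKM in labelled NFIA-Tg day 7 cultures, against 18.5, 19.5 and 20.6 FPKM in WT (log2 difference −2.42 ± 0.08), and at 7.15, 7.34 and 6.99 FPKM in labelled NFIA-Tg day 0 cultures, against 20.7, 21.8 and 21.2 FPKM in WT (−1.45 ± 0.08). Rpl36al, the autosomal relative of X-linked Rpl36a, was higher at day 7 (238, 185 and 194 FPKM in labelled NFIA-Tg, 127, 123 and 120 FPKM in WT, 0.73 ± 0.08) and gave −0.02 ± 0.08 at day 0. Rpl36a itself was lower at day 7 (176, 158 and 148 FPKM in labelled NFIA-Tg, 262, 237 and 246 FPKM in WT, −0.63 ± 0.06). Of 77 mitochondrial ribosomal protein genes, 39 were higher and 13 lower in labelled NFIA-Tg cultures at day 7, where 29.8% of all genes were higher and 51.1% lower. At day 0, 9 were higher and 26 lower, and the lower share was near the 34.9% of all genes.

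Reads of most members can be shared with copies elsewhere in the genome. In the GENCODE M21 annotation, 67 of 75 members with a coding sequence had at least 1 pseudogene transcript with 95% identity over 80% of that sequence. Rps4l, the remaining member, had no protein-coding entry there and was not searched, and reads that it may share with Rps4x were not tested. The median was 5 copies and the highest 56, for Rpl21, with 31 for Rpl7a, 21 for Rps12, 11 for Rps6, 9 for Rpl39, 6 for Rps4x and 2 for Rpl13a. Genes without such a copy included Rpl8, Rplp2, Rps3, Rps19, Rps27l and Rpl41. Only 14 such copies, of 11 genes, were listed in the tables. Rpl37rt, 99.7% identical to Rpl37, averaged 29.5 FPKM in labelled NFIA-Tg and 19.1 FPKM in WT day 7 cultures, and 45.2 FPKM in labelled NFIA-Tg and 26.5 FPKM in WT day 0 cultures, so it stood higher in the same groups as Rpl37. Values of members with copies are uncertain to that extent.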

How the data were processed

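PolyA RNA was sequenced from stranded libraries in 6 groups of 3 samples, per the labels' protocols. The deposited values are FPKM per gene, as the authors made them, with a gene length beside each; the aligner STAR 2.7.8a, the assembler StringTie 2.1.1 and build mm9 are named in the submitters' processing notes. Depth differs by library and sets the precision of low values: culture values times length came out as whole reads in 100% of cases (tolerance 0.01 reads), and the iWAT depth is unknown. Members and lists were chosen with earlier results of these data known, and so were promoter motifs, copies and chromosomes. In iWAT 410 entries that shared 180 symbols were summed.

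Genes with at least 1 FPKM in at least 3 samples were tested on log2(FPKM + 1), which understates changes of low genes, with limma 3.58.1 (R 4.3.3, eBayes with trend, two-sided, Benjamini-Hochberg over all genes tested). The 6 iWAT samples had their own fit and the 12 culture samples shared 1. Calls were made below an adjusted p of 0.05, errors of differences are SE, and counts for gene lists are over all genes' adjustment. Members named were the 5 largest changes each way per comparison, the 3 most and 3 least abundant, and a list of structural and stalk genes; others, such as Rpl8 and the copies, were named after their values were seen, and a few genes are not reported here. The fits were tested on simulated data. Alternatives were another pseudocount, filter, scaling, trend, robust eBayes, entry choice, replicate block, each library left out, and limma's voom on recovered reads with at least 10 reads in 3 samples. Copies were found with BLAST 2.17.0, and chromosomes come from GENCODE M21 (GRCm38) by symbol for 98.9% of tested culture genes.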

Additional observations from a re-analysis of the deposited data

Results flagged for a closer look

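The change with differentiation differed between the labelled genotypes, by the limma interaction test, for 16 of the named members. In favour of cultures labelled NFIA-Tg were Rps6 (0.65 ± 0.09 on the log2 scale), Rpl10 (0.59 ± 0.10), Rpl17 (0.53 ± 0.09), Rps24 (0.43 ± 0.10) and Rpl5 (0.40 ± 0.05). Against them were Rps21 (−0.83 ± 0.14), Rps4l (−0.67 ± 0.08), Rps12 (−0.64 ± 0.11), Rps28 (−0.61 ± 0.09), Rpl37a (−0.61 ± 0.11) and Rplp1 (−0.57 ± 0.11). Smaller values against them were those of Rps27l (−0.49 ± 0.08), Rps4x (−0.43 ± 0.08), Rpl3 (−0.39 ± 0.07), Rpl41 (−0.29 ± 0.11) and Rpsa (−0.22 ± 0.09). For Rpl41 the call was lost without any of 8 libraries, with adjusted p of 0.0562 to 0.0879, and for Rpsa without any of 10, at 0.0552 to 0.101. Both were also lost with median-of-ratios scaling (adjusted p = 0.156 and 0.256). Nfia itself had an interaction of −1.56 ± 0.07. For Rps6 the labelled NFIA-Tg minus WT difference was 0.46 at day 7 and −0.19 at day 0, and for Rps12 it was −0.85 and −0.21. Groups of 3 samples were too small to test for single outlying libraries, and WT iWAT replicate 1 is given above as a description.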

How the results depend on the processing

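The number of members called at day 0 ranged from 25 to 43 when each library was left out in turn, and those of the other comparisons were 0 in iWAT, 47 to 52 at day 7, 68 to 71 in labelled NFIA-Tg and 70 to 72 in WT differentiation, and 28 to 40 for the interaction. No other alternative moved the total of called members by over 1.5 times, but median-of-ratios scaling moved counts in 1 direction by more than that, to 26 higher and 23 lower at day 7 (16 and 35 before), to 14 lower at day 0 (25 before) and to 22 higher in the interaction (11 before). Rps6 in labelled NFIA-Tg differentiation reversed with TPM (−0.075), with scaling to the genes that are not members (−0.16) and with quantile normalization (−0.17), and Rpl9 with the first 2 of these (−0.10 and −0.18), and the cause was not tested. Of the other values of named members, 61 lost their call under an alternative, 36 gained one and 2952 were counted as unchanged. That last count includes values without a call in the main fit whose direction changed. Rplp2 in iWAT, for example, changed direction under 5 of 17 alternatives. Rescaling shifted the median of all genes by 0.11 (median-of-ratios) and 0.15 (quantile) at day 7, and by up to −0.29 in labelled NFIA-Tg and −0.22 in WT differentiation. With the replicate number as a block, called members numbered 0 in iWAT, 37 at day 0 and 51 at day 7. They numbered 71 in each differentiation comparison and 36 for the interaction. Same-numbered libraries deviated together (r over 0.1) in 1 of 18 pairs of culture libraries and 2 of 3 in iWAT, with highest r of 0.16 and 0.11. In groups of 3 such correlations cannot settle whether equal numbers share a pairing or a batch. In iWAT, Rps27 was low in both replicate 1 libraries. Voom on recovered reads called 53 members at day 7, 40 at day 0, 72 in labelled NFIA-Tg and 71 in WT differentiation and 38 in the interaction. Depth limits Rps27 in culture and every gene near 1 FPKM.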
